A study of Gallus gallus with 53 samples.

Results

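The BCR responses of cells pre-treated with a MEK inhibitor (WT + Inh) were set directly against those of IKKβSA cells, time by time. Both are DT40 cells, a chicken B cell line, and gene expression was measured on Affymetrix arrays. All columns titled with either cell condition that were unstimulated or stimulated with anti-IgM (M4) at 10 µg/ml were taken, 12 of the 53 columns of the series. There were 6 columns of WT + Inh and 6 of IKKβSA, 1 each at 0, 15, 30, 45, 60 and 90 min. WT + Inh are wild type cells given U0126, an inhibitor of MEK, for 30 min before stimulation, at 5 mM in the labels and 5 µM in the study's methods. IKKβSA cells carry a knock-in in which the serines at positions 176 and 181 of the kinase IKKβ are alanine (S176/181A), and the number of clones is not stated. The wording of the methods can be read as giving the inhibitor to IKKβSA cells too, while the labels give it to wild type cells only. A drug is thus set against a mutant line, so the effect of blocking MEK against that of blocking IKKβ cannot be told apart from drug against knock-in or from differences between the lines.

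The B cell receptor (BCR), crosslinked by anti-IgM, activates several kinase cascades in parallel. In one, RAF activates MEK and MEK activates ERK, which acts on transcription factors of the ETS and AP-1 families and on immediate early genes. In the other, the CARMA1, BCL10 and MALT1 complex leads to the kinase TAK1 and to IKKβ, which marks the inhibitor IκBα for degradation and so frees NF-κB to enter the nucleus. The comparison asks which BCR responses depend on the one pathway more than on the other.

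Each column combines 2 biological replicates, so there was 1 value per probe set, cell condition and time, and the errors given here are deviations of columns from smooth time courses, not a spread between cultures. The 12 columns had medians of 2.79 to 2.93 and maxima of 7091 to 7649 on the linear intensity scale. Of 38361 probe sets, 26852 were bright enough to be tested. The row IDs of the table do not pair with its values. Probe sets whose ID stands for a ribosomal protein had a median intensity of only 19.7 (n = 130, against 2.82 for all rows), and 60 of them were at or under 10. Above 10 were 53.8% of them, against 26.7% of all probe sets. No gene is therefore named, the B cell identity could not be checked against markers, and a probe set is given by its row number in the deposited table. A probe set was called where limma's adjusted p was under 0.05. Differences are log2 changes from 0 min in WT + Inh minus those in IKKβSA, so a negative value means a lower change in WT + Inh.

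BCR stimulation changed many probe sets in both conditions, with more rises of at least 2-fold in IKKβSA. The WT + Inh course was called for 3142 probe sets (11.7% of those tested) and the IKKβSA course for 2794 (10.4%). Of these, 165 rose at least 2-fold at some time in WT + Inh and 298 in IKKβSA, with 133 in both, which is 80.6% of the WT + Inh rises and 44.6% of the IKKβSA rises. Falls ran the other way, with 78 in WT + Inh, 43 in IKKβSA and 20 in both, or 25.6% of the WT + Inh falls and 46.5% of the IKKβSA falls. Both courses are measured from one 0 min column each, and no unstimulated column was taken later, so a drift without stimulus cannot be told apart from a response.

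The excess of rises in IKKβSA built up with time. At 15 min, 22 probe sets were at least 2-fold up in WT + Inh and 14 in IKKβSA. At 30, 45, 60 and 90 min WT + Inh had 45, 76, 112 and 133, against 65, 127, 201 and 259 in IKKβSA. WT + Inh had 6, 11, 17, 28 and 62 falls at 15, 30, 45, 60 and 90 min, against 1, 7, 11, 12 and 34 in IKKβSA. These are counts of called courses past a fold and are no test of a difference between the conditions.

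**Figure D1:**
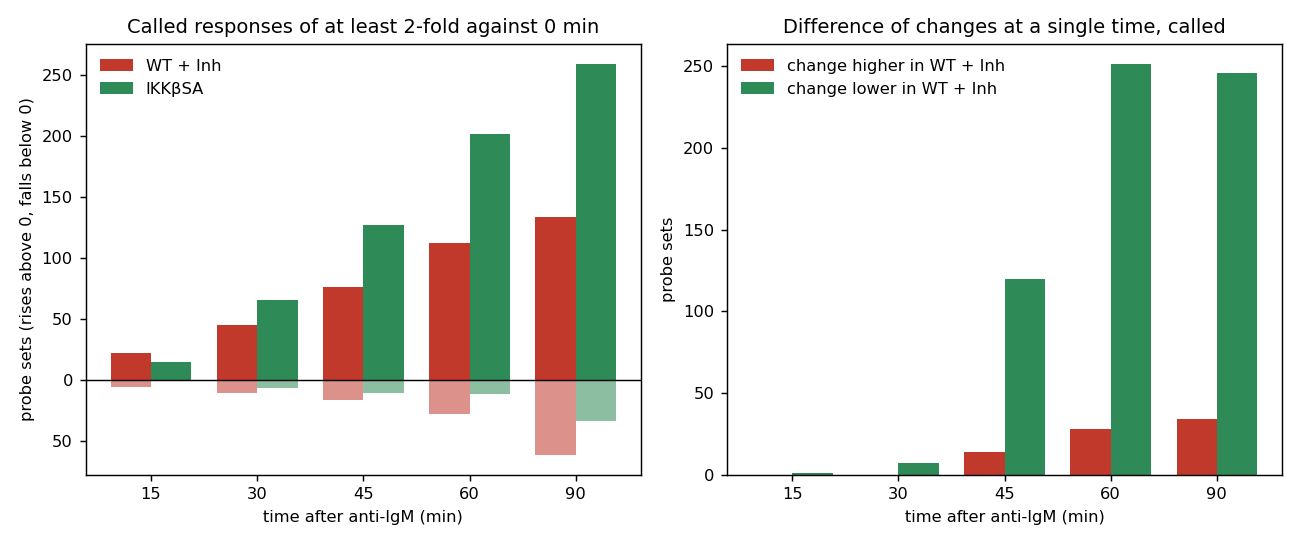
Numbers of probe sets by time after anti-IgM (min). The left panel shows called responses of at least 2-fold against 0 min in WT + Inh (red) and IKKβSA (green), with rises above 0 and falls below 0; the right panel shows probe sets whose change differed at that single time, higher (red) or lower (green) in WT + Inh. IKKβSA had 259 rises at 90 min against 133 in WT + Inh, and from 45 min on most called differences were lower in WT + Inh.

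The difference itself was called for 271 probe sets (1.01% of those tested), and 2294 had an unadjusted p under 0.05. At the time of its largest difference, the change was lower in WT + Inh for 243 of the 271 (0.905% of all tested) and higher for 28 (0.104%). The median size of the largest difference was 0.78 on the log2 scale for the called probe sets, against 0.31 for all tested. At least 2-fold was reached by 80 of the called probe sets (0.298%), 69 lower and 11 higher in WT + Inh, and at least 4-fold by 10, of which 8 were lower. For the same 271 calls, with no new test, changes counted from the 15 min columns gave 241 lower and 30 higher. The number of calls depended on the columns used, and the reason was not tested. Without the 15, 30, 45, 60 or 90 min columns it was 318, 213, 113, 134 or 82. A fit without the 0 min columns gave 114. That fit used a quadratic in time with an intercept for each course, so a constant gap open by 15 min did not count in it.

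A response found in one condition only was mostly not called as different between them. Of the 1632 probe sets with a called course in WT + Inh only, the difference was called for 43. Of the 1284 with a called course in IKKβSA only, it was called for 112. Over all tested probe sets it was called for 271 (1.01%). These sets and the 2-fold sets below were picked on the same courses that the difference test uses, so the counts are descriptions. The next counts are of called changes of at least 2-fold, where the other condition may have a called change under 2-fold. Of the 165 probe sets with a 2-fold rise in IKKβSA but not in WT + Inh, the course differed for 57, and of the 32 with a rise in WT + Inh alone it differed for 4. Of the 58 falls found in WT + Inh alone it differed for 13, and of the 23 found in IKKβSA alone for 3. Among the rises found in both conditions 27 still differed. A further 66 probe sets had an observed difference of at least 2-fold at some time without a call, 42 lower and 24 higher in WT + Inh. Their median residual SD around the curves was 0.16, against 0.13 for the 80 that were called.

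**Figure D2:**
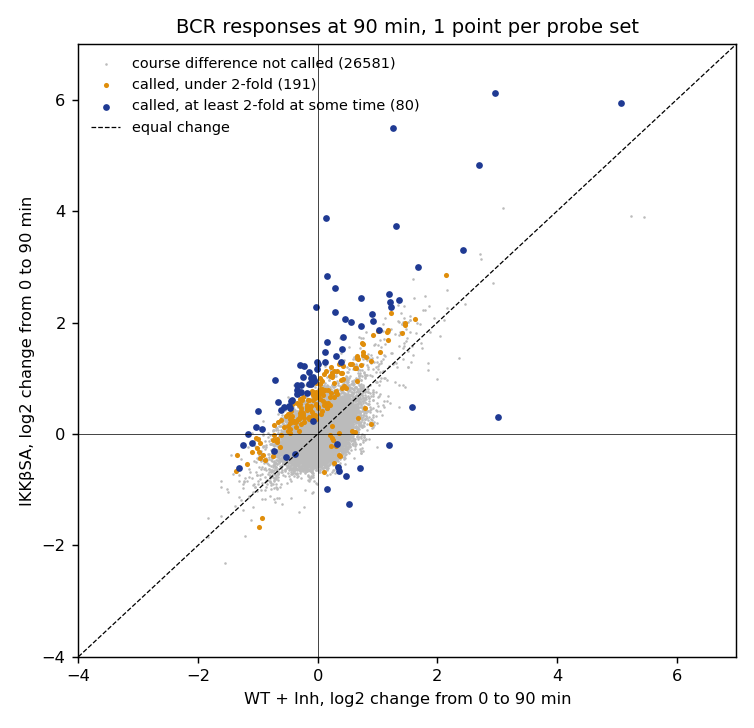
Log2 change from 0 to 90 min in WT + Inh (horizontal) and IKKβSA (vertical), 1 point for each of the 26852 probe sets tested. Called differences (orange, and blue where at least 2-fold at some time) lie mostly above the dashed line of equal change, with IKKβSA the higher; several of them stand near 0 in WT + Inh.

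Called differences were few at the early times. Tested singly, the change differed for 1 probe set (0.00372%) at 15 min and 7 (0.0261%) at 30 min. The count was 134 (0.499%) at 45 min, 279 (1.04%) at 60 min and 280 (1.04%) at 90 min. The calls at 15 and 30 min were all lower in WT + Inh. At 45, 60 and 90 min, 14, 28 and 34 were higher and 120, 251 and 246 lower in WT + Inh. The median difference of the 271 probe sets at 15, 30, 45, 60 and 90 min was -0.08, -0.30, -0.45, -0.60 and -0.69, while the median over all tested probe sets stayed between 0.00 and 0.01. The largest difference came at 90 min for 188 of the 271 and for 52 of the 80. The fitted differences had a median SE of 0.16 at 15 min and 0.23 at 90 min. These single-time tests are of a smooth curve, which may follow a fast onset only in part. Row 35219 had an observed difference of -2.91 at 15 min and a fitted one of -2.33 (limma adjusted p = 0.352). With 2 spline degrees of freedom more calls were made at 15 and 30 min, as given below. A change that missed the threshold at an early time is not shown to be alike in both conditions.

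The 80 probe sets with a called difference of at least 2-fold fell into 4 groups, by the condition with the larger change at the time of the largest difference and by its direction. The largest group had 56 probe sets with a rise in IKKβSA, where the median change at that time was -0.01 in WT + Inh and 1.35 in IKKβSA. In 13 the larger change was a fall in WT + Inh, with a median change of -0.86 in WT + Inh and 0.34 in IKKβSA. In 7 it was a rise in WT + Inh, with medians of 1.19 in WT + Inh and -0.20 in IKKβSA, and in 4 a fall in IKKβSA, with medians of 0.41 in WT + Inh and -0.71 in IKKβSA. The course of the condition with the larger change was itself called for only 9 of the 13, but for all of the 56, the 7 and the 4. Over all probe sets tested, the WT + Inh course was called for 11.7% and the IKKβSA course for 10.4%. The smaller change lay within 0.5 of 0 on the log2 scale for 36 of the 56, 10 of the 13, 4 of the 7 and 4 of the 4. A mean intensity of at least 10 was reached by 37 of the 56, 8 of the 13, 2 of the 7 and 0 of the 4. The median level gap at 0 min, WT + Inh minus IKKβSA, was 0.14, 0.20, -0.36 and -0.76 in these groups. That gap enters every change, and in the group of 4 the median level gap at 90 min was only 0.25. The call and the size of the difference chose these probe sets, so the medians and the counts of called courses are descriptions.

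**Figure D3:**
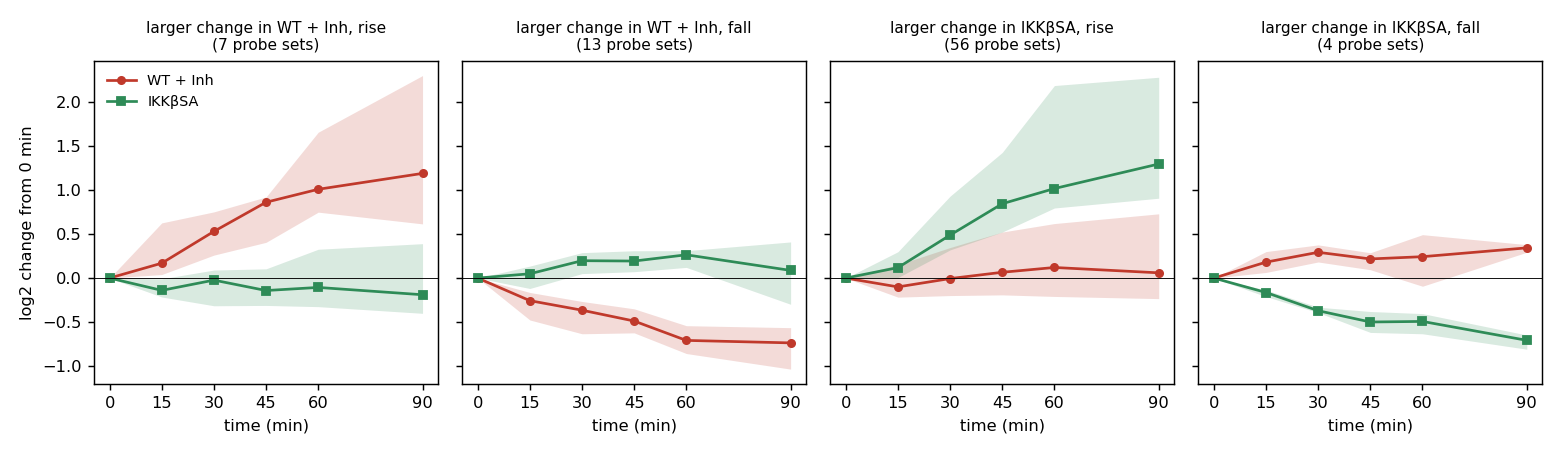
Median log2 change from 0 min by time (min) in WT + Inh (red circles) and IKKβSA (green squares) for the 4 groups of probe sets with a called difference of at least 2-fold, with shading from the lower to the upper quartile of probe sets. In the group of 56 the IKKβSA median reached 1.30 at 90 min while the WT + Inh median was 0.06; in the group of 13 the WT + Inh median was -0.74 at 90 min against 0.09 in IKKβSA.

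The IKKβSA rises were mostly late. The last time measured was 90 min, so how long a rise with its highest change there lasted is not known. Of the 56, 4 had their highest IKKβSA change at 30 min, 4 at 45 min, 11 at 60 min and 37 at 90 min. A rise of at least 4-fold in IKKβSA was reached by 21. The change was lower in WT + Inh at all 5 times for 45. The 5 changes share a single 0 min column per condition, and that level was higher in WT + Inh for 41 of the 56. The 56 were also chosen for a lower change in WT + Inh at the time of the largest difference, so this count is a description. In WT + Inh the course was not called for 31, and the change at the time of the largest difference was below 0 for 29. A called WT + Inh course with a rise of at least 2-fold at some time was found for 13. Median levels at 90 min were 14.2 in WT + Inh and 30.8 in IKKβSA, and at 0 min 11.1 in WT + Inh and 8.85 in IKKβSA. The 0 min level was under 10 in both conditions for 26 of the 56.

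Row 20634 had the largest difference. Its intensity at 0, 15, 30, 45, 60 and 90 min was 1.90, 8.58, 9.88, 3.79, 2.74 and 2.08 in WT + Inh, against 2.35, 139, 216, 151, 79.5 and 34.4 in IKKβSA. Both courses peaked at 30 min, and every stimulated IKKβSA level was above every WT + Inh level. Every WT + Inh level was under 10, so the row met the mean intensity of 10 through IKKβSA only. The 0 min levels of both conditions were under the column medians and are not shown to be above background, so folds against them depend on dim values. The observed rise was 5.21-fold in WT + Inh and 92.0-fold in IKKβSA, and the observed difference at 45 min was -5.01 (limma adjusted p = 2.45e-05 for the course). Fitted values gave -4.64 there, with a 95% interval of -5.79 to -3.49. The call was lost with 2 spline degrees of freedom (adjusted p = 0.22), in the slope test (0.134) and without the 0 min columns (0.922), where changes counted from 15 min differed by at most -1.30, since the gap was already there at 15 min.

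Row 35219 had the same early shape at a higher level. It measured 2.84, 69.3, 60.1, 26.5, 11.7 and 6.81 in WT + Inh at the 6 times, against 3.89, 713, 1082, 735, 403 and 175 in IKKβSA. Stimulated levels did not overlap. The rise was 24.4-fold in WT + Inh, at 15 min, and 278-fold in IKKβSA, at 30 min, and the largest difference was -4.65 at 60 min (limma adjusted p = 0.000951). Both 0 min levels were dim, against column medians of 2.79 to 2.93, and the folds depend on them. The call was lost with 2 spline degrees of freedom (adjusted p = 0.408) and without the 0 min columns (0.396, with a largest difference of -1.74 counted from 15 min). WT + Inh was back to 6.81 by 90 min, when IKKβSA was still at 175.

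Row 1984 rose later and stayed up. It measured 4.11, 4.07, 9.30, 20.6, 26.0 and 32.2 in WT + Inh, against 4.02, 5.03, 92.4, 216, 260.3 and 279 in IKKβSA. From 30 min on every IKKβSA level lay above all WT + Inh levels. The highest rise was 7.84-fold in WT + Inh and 69.6-fold in IKKβSA, with a difference of -3.42 at 45 min (limma adjusted p = 0.0058). The call was lost in 4 of 14 alternatives, with adjusted p up to 0.174 (without the 45 min columns).

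Row 21753 had similar levels in both conditions at first and parted after 30 min. It measured 3.33, 4.37, 19.0, 25.5, 23.0 and 21.7 in WT + Inh, against 3.03, 5.38, 16.1, 42.7, 67.9 and 86.1 in IKKβSA. WT + Inh levels held between 21.7 and 25.5 from 45 min on, whereas IKKβSA levels went on rising at each later time. The difference was -2.13 at 90 min (limma adjusted p = 0.0354 for the course), and the test at 90 min alone did not pass (adjusted p = 0.0699, fitted interval -3.05 to -0.85). The call for the course was lost in 5 of 14 alternatives, those without the 45, 60 or 90 min columns among them, with adjusted p up to 0.667.

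Row 19221 responded in IKKβSA without a called response in WT + Inh. It measured 6.20, 5.35, 6.16, 5.91, 7.11 and 6.09 in WT + Inh, against 7.39, 8.34, 18.3, 20.4, 25.6 and 35.9 in IKKβSA. The WT + Inh values kept within a narrow band and those of IKKβSA were higher at each time, with a difference of -2.31 at 90 min (limma adjusted p = 1.46e-05), and the call held in all 13 alternatives run for this row. In wild type cells without inhibitor the same row reached 15.2 at 90 min, between the levels of the 2 conditions compared. Wild type was also between them at 90 min in rows 13624 and 12150. It was above both in rows 20634, 35219, 1984, 21753 and 26960.

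In 3 further rows the 0 min level was higher in WT + Inh and the order turned during the course. Row 26960 measured 15.0, 18.8, 32.1, 37.9, 39.9 and 24.9 in WT + Inh, against 9.80, 18.6, 65.7, 98.4, 83.3 and 53.1 in IKKβSA. Row 13624 measured 14.2, 19.3, 23.3, 18.2, 23.2 and 17.3 in WT + Inh, against 8.65, 21.4, 46.0, 39.6, 43.2 and 39.3 in IKKβSA. For these the stimulated levels overlapped only through the 15 min column of IKKβSA, and the largest differences were -1.99 at 45 min and -1.90 at 90 min (limma adjusted p = 0.000166 and 0.00152). Without the 0 min columns, in the fit with an intercept for each course, both calls were lost (adjusted p = 0.458 and 0.877). Row 12150 moved in opposite directions at 30 and 45 min, with 18.9, 16.5, 13.8, 11.5, 19.5 and 20.5 in WT + Inh, against 14.7, 13.1, 17.4, 31.4, 37.8 and 35.9 in IKKβSA. At 45 min WT + Inh was at its lowest and IKKβSA was still rising, and the difference was -1.81 (limma adjusted p = 0.000138), a call that held in all 14 alternatives.

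Some of the clearest cases were dim before stimulation, and the next 2 were chosen after their values were seen. Row 33032 measured 2.65, 2.10, 2.42, 2.70, 2.68 and 2.97 in WT + Inh, against 2.26, 1.93, 2.54, 4.75, 12.5 and 16.2 in IKKβSA, a difference of -2.68 at 90 min (limma adjusted p = 8.69e-11). Row 4278 measured 1.78, 1.75, 2.10, 2.02, 2.13 and 2.17 in WT + Inh, against 1.63, 1.95, 2.64, 7.74, 11.7 and 10.0 in IKKβSA, a difference of -2.59 at 60 min (limma adjusted p = 6.81e-08). Neither had a called course in WT + Inh, and IKKβSA levels lay above all of WT + Inh from 30 min on in row 4278 and from 45 min on in row 33032. All 0 min levels of both rows were under the column medians, and their calls held in the 13 alternatives run for each. Both were too dim for the alternative with a mean intensity of at least 10.

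**Figure D4:**
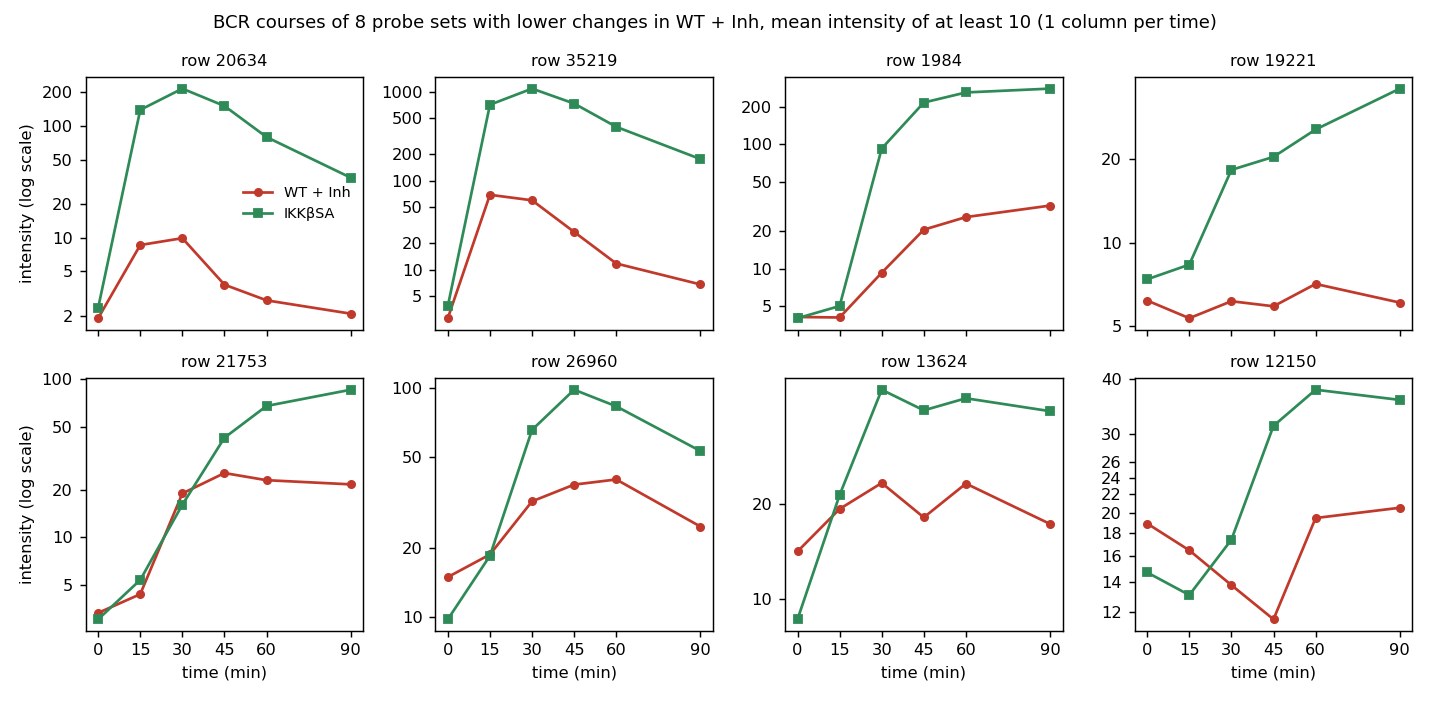
Intensity (log scale) by time after anti-IgM (min) for 8 probe sets with the largest negative differences among those with a mean intensity of at least 10, in WT + Inh (red circles) and IKKβSA (green squares), 1 column per point and no error bars. Rows 20634 and 35219 peaked by 30 min in both conditions, and row 19221 stayed between 5.35 and 7.11 in WT + Inh while IKKβSA reached 35.9.

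The falls in WT + Inh were moderate and gradual, with a median change of -0.26 at 15 min and -0.74 at 90 min. The largest difference came at 60 min for 5 of the 13 and at 90 min for 6. Across the 13 probe sets the change in WT + Inh at the time of the largest difference ran from -1.24 to -0.56, and in IKKβSA from -0.21 to 0.73. Row 31771 measured 27.5, 26.7, 22.2, 21.6, 17.4 and 13.4 in WT + Inh, against 23.7, 26.0, 22.9, 25.7, 26.8 and 25.9 in IKKβSA. WT + Inh fell at every step while IKKβSA kept near its starting level, and the difference at 90 min was -1.16 (limma adjusted p = 0.000189, fitted interval -1.57 to -0.80). Without the 90 min columns it was -0.84 and not called (adjusted p = 0.125). Row 7827 measured 13.0, 9.34, 10.1, 8.44, 10.0 and 8.22 in WT + Inh, against 10.1, 10.7, 10.4, 11.4, 12.1 and 15.0 in IKKβSA. Its difference was -1.23 at 90 min (limma adjusted p = 0.033), but neither of its own courses was called (adjusted p = 0.0652 in WT + Inh and 0.0701 in IKKβSA), and the call was lost in 6 of 14 alternatives (adjusted p up to 0.872). A pair of brighter members, chosen after their values were seen, had the 2 levels apart throughout. Row 35774 measured 78.5, 70.2, 63.4, 49.1, 36.3 and 31.7 in WT + Inh, against 118, 134, 145, 136, 113 and 77.5 in IKKβSA, with a difference of -1.05 at 60 min (limma adjusted p = 0.000117). Row 4482 measured 36.7, 32.8, 30.5, 25.4, 22.5 and 15.5 in WT + Inh, against 50.8, 57.7, 58.2, 58.1, 56.4 and 44.0 in IKKβSA, with a difference of -1.04 at 90 min (limma adjusted p = 9.67e-05). In both rows WT + Inh declined from the first stimulated column on, IKKβSA was lowest at 90 min, and stimulated levels did not overlap. Both 0 min levels were already lower in WT + Inh. Without the 0 min columns, in the fit with an intercept for each course, the calls were lost (adjusted p = 0.576 and 0.0513).

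Called differences that peaked early were rare. Among the brighter probe sets the largest that peaked at 30 min was row 20372, at -0.70 (limma adjusted p = 0.0187). Its level at that time was 57.1 in WT + Inh and 69.1 in IKKβSA. The 0 min levels were 72.5 in WT + Inh and 54.1 in IKKβSA, 0.42 apart on the log2 scale (limma adjusted p = 0.00351), so most of the -0.70 was the 0 min gap, and the call was lost in 9 of 14 alternatives.

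Differences higher in WT + Inh were fewer. Among the called probe sets with a mean intensity of at least 10 and a difference of one sign at 4 or more times, 12 were higher in WT + Inh, against 199 lower. Row 22727 was the only one of the 8 largest with a difference of over 2-fold, 1.12 at 45 min (limma adjusted p = 0.0176). It measured 9.53, 9.84, 15.6, 17.3, 17.6 and 11.9 in WT + Inh, against 18.2, 13.9, 14.3, 15.2, 16.9 and 16.0 in IKKβSA. Its stimulated levels overlapped, and the 0 min levels differed by -0.94 (limma adjusted p = 0.00038), a level that enters every change. The call was lost in 5 of 14 alternatives. Without the 0 min columns the largest difference, counted from 15 min, was 0.68 (adjusted p = 0.427).

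Row 18907 rose further in WT + Inh. It measured 44.6, 38.5, 48.3, 59.2, 69.9 and 83.0 in WT + Inh, against 43.9, 36.5, 40.9, 43.0, 48.7 and 49.6 in IKKβSA. Both dipped at 15 min, WT + Inh was the higher at every time and the gap widened with each later time, with a difference of 0.72 at 90 min (limma adjusted p = 0.0142, fitted interval 0.39 to 1.03). The call was lost in 7 of 14 alternatives, and without the 90 min columns the difference was 0.50 (adjusted p = 0.588). Row 13930 rose steadily through 176, 183, 191, 215, 232 and 262 in WT + Inh, against 199.8, 202, 192, 207, 204 and 207 in IKKβSA, a difference of 0.52 at 90 min (limma adjusted p = 0.00452). That call was lost in 4 of 14 alternatives, with 0.37 and an adjusted p of 0.641 without the 90 min columns.

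Among the brightest, row 24621 had the smallest residual error of the rows described, 0.04. It measured 1775, 1959, 1895, 1959, 2061 and 2207 in WT + Inh, against 2344, 2442, 2417, 2260, 2172 and 2009 in IKKβSA. The levels crossed between 60 and 90 min, and the difference of 0.54 was called (limma adjusted p = 2e-05) although the changes were at most 1.24-fold in WT + Inh and 1.17-fold in IKKβSA. It was lost only without the 90 min columns (0.33, adjusted p = 0.22). The other 4 of these 8, rows 4182, 1560, 22257 and 9701, had differences of 0.80, 0.73, 0.60 and 0.44 at 90 min with limma adjusted p between 0.0272 and 0.0443. These calls were not stable: median centring ended all 4, and of 14 alternatives they were lost in 6, 10, 6 and 11. Row 22257 was the lower in WT + Inh throughout, at 289, 327, 384, 429.8, 401 and 448 in WT + Inh, against 496, 469.7, 481, 512, 485 and 506 in IKKβSA, and the gap narrowed as WT + Inh rose. In rows 4182 and 1560 the IKKβSA change was negative, at -0.52 and -0.37, and the WT + Inh change was 0.28 and 0.35. Their 0 min levels differed by -0.46 and -0.35 (limma adjusted p = 0.0291 and 0.0678), a level that enters every change. Row 1560 had no called course in either condition, and row 4182 had one in IKKβSA only.

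A pair of probe sets outside the rule for rows with given values were chosen after their values were seen. Row 15201 had the largest positive called difference but a mean intensity of only 3.54. It measured 1.76, 1.98, 2.54, 3.38, 7.65 and 14.3 in WT + Inh, against 1.58, 1.59, 1.78, 1.99, 1.99 and 1.94 in IKKβSA. WT + Inh rose at each step and IKKβSA stayed between 1.58 and 1.99, with a difference of 2.72 at 90 min (limma adjusted p = 5.61e-08). Row 35507 was the only one of the 80 with its largest difference at 15 min, 1.58 (limma adjusted p = 0.00231). It measured 6.80, 37.7, 154, 213, 233 and 229.8 in WT + Inh, against 2.30, 4.27, 31.4, 90.7, 127 and 141 in IKKβSA. WT + Inh was the higher at every time. The difference of changes turned negative after 30 min, to -0.86 at 90 min. By then the gap between the levels had narrowed to less than that at 0 min, which was 1.56 on the log2 scale (limma adjusted p = 0.000287). The sign of the largest difference depended on the columns used. Without the 15 min columns it was -0.86 (limma adjusted p = 1.66e-05), and counted from 15 min it was -2.44 (0.0187).

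**Figure D5:**
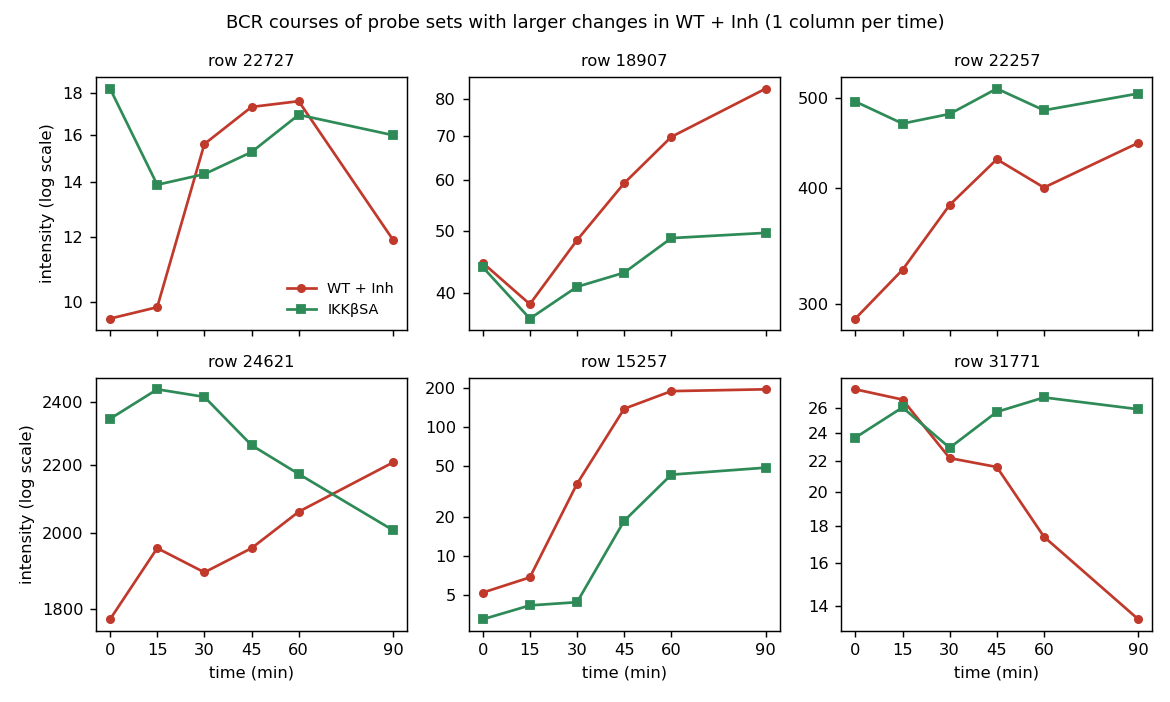
Intensity (log scale) by time after anti-IgM (min) for 6 probe sets whose change was larger in WT + Inh (red circles) than in IKKβSA (green squares), 1 column per point and no error bars. Row 18907 reached 83.0 in WT + Inh and 49.6 in IKKβSA at 90 min, row 31771 fell to 13.4 in WT + Inh, and the difference of row 15257 was not called.

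Responses called in both conditions without a called difference between them numbered 1401. They included 103 rises and 20 falls of at least 2-fold in both conditions at the same time. Row 5776 measured 5.75, 25.4, 100.5, 107, 78.8 and 49.1 in WT + Inh, against 10.7, 59.7, 219.5, 285, 265 and 178 in IKKβSA. IKKβSA was the higher at every time including 0 min, and the rise was 18.6-fold in WT + Inh and 26.8-fold in IKKβSA. The fitted difference at 90 min was -0.90 with an interval of -1.46 to -0.33 (limma adjusted p = 0.216 for the course, and 0.0199 without the 15 min columns). The course difference of row 5776 was called in 2 of 14 alternatives, with limma adjusted p down to 0.000388. Row 17988 rose 9.24-fold in WT + Inh and 11.3-fold in IKKβSA, with a fitted difference at 60 min of -0.65 and an interval of -1.56 to 0.26. Row 23610 fell in both, measuring 84.0, 70.0, 52.8, 36.5, 28.0 and 23.7 in WT + Inh, against 90.6, 79.8, 44.2, 36.1, 28.9 and 25.1 in IKKβSA, with a fitted difference at 90 min of 0.09 and an interval of -0.36 to 0.54. The interval for row 23610 is narrow against its 3.55-fold and 3.61-fold falls, and those of the other rows allow sizeable differences.

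The adjacent rows 15257 and 15256 had large observed differences in the opposite direction without a call. Row 15257 measured 5.20, 6.82, 36.3, 139, 189.9 and 196 in WT + Inh, against 3.23, 4.14, 4.38, 18.7, 42.7 and 48.4 in IKKβSA. Row 15256 measured 3.39, 4.14, 31.4, 112, 153 and 149 in WT + Inh, against 2.50, 2.39, 3.60, 15.4, 32.5 and 37.2 in IKKβSA. Both were induced by 30 min in WT + Inh and by 45 min in IKKβSA, with observed differences of 2.36 and 2.68 at 30 min. The residual SD was high, at 0.37 and 0.45, and limma gave adjusted p = 0.238 and 0.490. In a fit of the 22 columns of both conditions without wild type the adjusted p was 0.00538 and 0.0294, and without the 15 min columns it was 3.17e-05 and 3.9e-06, so the call for these rows depended on the columns used.

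Levels already differed before stimulation. The fitted 0 min level was called for 1823 probe sets (6.79%), 1171 higher and 652 lower in WT + Inh, and the observed level was at least 2-fold apart for 30 higher and 18 lower in WT + Inh. Of the 271 probe sets with a different course, 116 were also called at 0 min, and of the 80 at least 2-fold apart, 23. The course differences are measured from the same fitted 0 min levels. A deviation in a 0 min column therefore enters both tests, and these 2 overlaps are descriptions only. Observed 0 min levels were 2-fold apart for 2 of the 80. Row 33384, a shared fall, measured 264, 384, 225, 152, 131 and 90.4 in WT + Inh, against 749.5, 876, 534, 311, 256 and 150.5 in IKKβSA. Its level was lower in WT + Inh at every time, by -1.50 on the log2 scale at 0 min (limma adjusted p = 6.17e-06). The course difference was not called (limma adjusted p = 0.696, and 0.015 without the 15 min columns, fitted interval at 90 min 0.12 to 1.31). It was called in 2 of 14 alternatives, with limma adjusted p down to 4.13e-05. Stimulated levels of the conditions did not overlap for 51 of the 271 and 21 of the 80, against 9.32% of all tested probe sets.

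The same cells were stimulated with CD40 ligand (CD40L), at 6 µg/ml, and those courses share their 0 min columns with the BCR courses. The CD40 course differed for 110 probe sets (0.41%), 39 higher and 71 lower in WT + Inh, and 2690 had an unadjusted p under 0.05. To leave out the shared columns, differences between the conditions were also counted from 15 to 90 min. In the group of 56 IKKβSA rises the median of these was -1.02 after BCR and -0.39 after CD40 stimulation. In the groups of 13, 7 and 4 it was -0.66, 1.03 and 0.70 after BCR and -0.34, 0.13 and 0.12 after CD40 stimulation. The probe sets were chosen on their BCR courses, so no test was made of this contrast. Row 20634 kept within 1.65 to 2.46 in WT + Inh and 1.93 to 2.28 in IKKβSA after CD40L. These levels were under the medians of the 12 BCR columns (2.79 to 2.93), and a CD40 response within either condition was not tested. Row 18907 reached 104 in WT + Inh and 48.7 in IKKβSA at 90 min of CD40L, and its CD40 course differed as well (limma adjusted p = 0.000128).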

How the data were processed

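Intensity values were deposited by the authors on a linear scale. RMA is the tool listed in the submitters' processing notes, and no version is listed there. Each column combines 2 biological replicates by a step the sources used here do not describe. No scanner files were used here, and the 1 column per condition and time limits the precision.

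The deposited intensities were converted to log2 without a pseudocount. A filter on dim probe sets, at the 30th percentile of the mean log2 level (1.05), removed 11509. The study's methods name no test, so courses were fitted with limma 3.58.1 (R 4.3.3) over all 53 columns, with an intercept per cell condition and a natural spline of time per course (3 degrees of freedom, knots at 25 and 50 min, boundaries at 0 and 90 min; 33 parameters and 20 residual degrees of freedom). Wild type columns entered only the error and no difference given. The difference of courses was limma's moderated F-test of 3 coefficients, with an error trend and Benjamini-Hochberg adjustment over 26852 probe sets. Changes at single times were contrasts of the fit, and observed differences are of the columns themselves.

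Rows with given values were the 8 largest differences in each direction, the 2 largest of each group by condition and direction, the 4 rises and 2 falls with the largest shared change, and the largest at each time. The groups here took in called differences under 2-fold, such as rows 4182, 1560 and 18907. They needed a mean intensity of at least 10 over the 12 columns and, except for the shared ones, a called course and a difference of 1 sign at 4 or more of the 5 times. No row met this with its largest difference at 15 min, and none of the 4 IKKβSA falls of at least 2-fold met it. These columns, rules and tests were chosen with earlier results of these data known. Alternatives were other filters, median centring, 2 spline degrees of freedom, fits of 22 or 12 columns, fits without the error trend, the 0 min columns or each time in turn, other minimum folds, and, added after the data were seen, a slope of the paired differences over time. Without the 0 min columns, each course had its own intercept and a quadratic in time in place of the spline. Changes were then counted from 15 min.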

Additional observations from a re-analysis of the deposited data

Results flagged for a closer look

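The test of the difference between WT + Inh and IKKβSA itself passed for 271 probe sets after BCR stimulation and for 110 after CD40 stimulation (limma, adjusted over all probe sets tested). The rows given with values that passed the BCR test were singled out for the same reason. Higher in WT + Inh were row 22727 with an observed log2 difference of 1.12, row 4182 with 0.80, row 1560 with 0.73, row 18907 with 0.72, row 22257 with 0.60, row 24621 with 0.54, row 13930 with 0.52 and row 9701 with 0.44. Rows 15201 and 35507, added after their values were seen, had 2.72 and 1.58.

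Lower in WT + Inh were row 20634 with -5.01, row 35219 with -4.65, row 1984 with -3.42, row 19221 with -2.31, row 21753 with -2.13, row 26960 with -1.99, row 13624 with -1.90, row 12150 with -1.81, row 7827 with -1.23, row 31771 with -1.16 and row 20372 with -0.70. Rows 33032, 4278, 35774 and 4482, added after their values were seen, had -2.68, -2.59, -1.05 and -1.04. With 1 column per condition and time, no column could be tested for standing apart from others of its group.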

How the results depend on the processing

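Among whole BCR courses, differences lower in WT + Inh outnumbered those higher under every alternative run, while the numbers moved. Against 271 calls, a fit without the error trend gave 169 (16 higher and 153 lower in WT + Inh), and the fit without the 0 min columns gave 114 (10 higher and 104 lower), of which 107 were among the 271. The fit of 22 columns shared 233 of the 271, that of 12 columns 181. Median centring left 17 higher. The slope of the paired differences gave 600 (129 higher and 471 lower), 235 of them among the 271. At least 2-fold, a mean intensity of at least 10 left 46 probe sets (2 higher and 44 lower), the fit without 0 min columns 32 (3 higher and 29 lower), and the 12 columns 7 higher. A minimum of 1.5-fold gave 210 and of 4-fold 10. For single times, calls at 15, 30, 45, 60 and 90 min were 0, 3, 70, 179 and 170 without the trend. With 2 spline degrees of freedom they were 20, 43 and 73 at 15, 30 and 45 min. A mean of at least 10 left 0 at 15 min and 2 at 30 min, and the 12 columns left 0 at 15 min. The CD40 count was 234 with 22 columns, 47 without the trend and 22 without 0 min columns. The causes were not tested beyond the fewer columns or probe sets that each fit has.

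Leaving out 1 stimulated time gave 82 to 318 different courses (6 to 43 higher and 76 to 275 lower), 31 to 88 at least 2-fold (4 to 14 higher and 27 to 74 lower), and 36 to 281 CD40 courses. Calls at single times ranged over 0 to 3, 3 to 52, 38 to 241, 69 to 332 and 123 to 447 for 15, 30, 45, 60 and 90 min. The WT + Inh course was called for 1358 to 3125, the IKKβSA course for 1371 to 2976 and the 0 min level for 1045 to 1905. Of 457 alternative values for 33 rows, 356 kept direction and call, 85 lost the call, 10 gained it and 6 reversed. Row 17988, not called, was 0.57 without 60 min, against -0.58. Rows 35507, 16066 and 14533 were -2.44, -3.91 and -3.01 without the 0 min columns, against 1.58, 2.77 and 2.52, and without 15 min row 35507 was -0.86 and row 16066 -1.14. No paired analysis was possible because each column combines replicates 1 and 2. The 12-column fit gives no CD40 value, and fits without 0 min columns give no 0 min level, response or single-time change.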

Other observations

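A pair of probe sets, chosen after their values were seen, stood out in the 15 min column of WT + Inh. Row 16066 measured 28.0, 200.5, 15.9, 22.3, 93.6 and 112 in WT + Inh at 0, 15, 30, 45, 60 and 90 min, against 6.93, 7.25, 8.68, 8.96, 10.6 and 13.7 in IKKβSA. Row 14533 measured 8.95, 56.2, 8.45, 9.34, 20.7 and 22.9 in WT + Inh, against 5.58, 6.13, 7.40, 6.55, 6.88 and 7.77 in IKKβSA. Both were high at 15 min in WT + Inh, low at 30 and 45 min and higher again at 60 and 90 min, a shape that the smooth curve could not follow. The course difference was not called for either (limma adjusted p = 0.973 and 0.974). Without the 15 min columns it was called for both (adjusted p = 0.000391 and 0.0267), with largest differences of -1.14 and 0.90. Over all probe sets tested, 1 was at least 2-fold above the other 11 columns in that 15 min column.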
